A study of Homo sapiens with 12 samples.

Results

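TEX14 was measured in MDA-MB-231 cells together with 7 other genes of the germ line: DAZL, DDX4, DMC1, SYCP1, SYCP2, STAG3 and PIWIL1. The 8 genes were listed by name, and TEX14 was selected on its own group means here, which were highest with both drugs, lower with SAHA and at the background with DMSO. They are read by 10 probe sets, 2 each for DMC1 and SYCP1, out of 11963 genes and 19064 probe sets listed for a single gene. MDA-MB-231 is an established cell line from a human breast carcinoma without oestrogen and progesterone receptors. Cells were kept for 24 h with 5 uM SAHA plus 2.5 mM pargyline (labelled COMBO), with 5 uM SAHA alone, with 2.5 mM pargyline alone or with the vehicle DMSO. Each of the 4 groups had 3 biological replicates, 1 Affymetrix array each. SAHA (vorinostat) inhibits histone deacetylases, and pargyline inhibits monoamine oxidases and can inhibit the related histone demethylase LSD1. All groups are cells of 1 line at 1 dose and 1 time, and the labels do not say whether replicates were separate cultures grown on separate days.

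Germ line genes are silent in most adult tissues, where promoter DNA methylation and repressor complexes such as those holding E2F6, MGA and MAX keep them off. In the testis and ovary, TEX14 keeps the cytoplasmic bridges between sister germ cells open by binding CEP55, which in other cells recruits the machinery that cuts daughter cells apart. SYCP1 and SYCP2 build the synaptonemal complex that joins homologous chromosomes, STAG3 is the meiotic cohesin subunit, and DMC1 is the meiotic recombinase. PIWIL1 and DDX4 act in the piRNA pathway that silences transposons, and DAZL binds germ cell mRNAs and promotes their translation. Some germ line genes, called cancer-testis antigens, are also active in tumours.

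Promoters of 5 genes are shown here because they carry, or lack, the letters that the repressors named above are known to bind. They are the 250 bases before a gene's RefSeq start (GRCh38.p14), read 5′ to 3′ on the gene's strand, for the most upstream start listed. Capitals mark TCCCGC or its reverse complement GCGGGA, which match the E2F motif, and CACGTG, which matches the E-box read by MAX and its partners. SYCP2 (chr20:59933638-59933887, minus strand), STAG3 (chr7:100177474-100177723, plus strand) and PIWIL1 (chr12:130337637-130337886, plus strand) stayed at or near the floor of the array values in all groups. PAGE4 (chrX:49829010-49829259, plus strand) and TDRKH (chr1:151790535-151790784, minus strand) are genes of the same lists that rose with SAHA.
SYCP2: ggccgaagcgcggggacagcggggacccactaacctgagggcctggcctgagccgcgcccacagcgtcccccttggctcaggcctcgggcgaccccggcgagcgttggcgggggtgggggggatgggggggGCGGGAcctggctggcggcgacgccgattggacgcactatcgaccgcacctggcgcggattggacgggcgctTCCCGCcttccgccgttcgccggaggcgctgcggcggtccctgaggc
STAG3: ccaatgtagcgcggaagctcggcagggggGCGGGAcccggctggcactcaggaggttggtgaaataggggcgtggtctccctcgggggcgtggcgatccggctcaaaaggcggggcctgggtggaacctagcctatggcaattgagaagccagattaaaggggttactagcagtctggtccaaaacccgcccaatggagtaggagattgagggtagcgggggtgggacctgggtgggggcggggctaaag
PIWIL1: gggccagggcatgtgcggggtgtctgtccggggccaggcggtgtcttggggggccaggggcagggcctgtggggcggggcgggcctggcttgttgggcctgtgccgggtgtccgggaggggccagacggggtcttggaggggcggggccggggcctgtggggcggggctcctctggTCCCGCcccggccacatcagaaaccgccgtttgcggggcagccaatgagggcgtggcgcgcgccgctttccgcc
PAGE4: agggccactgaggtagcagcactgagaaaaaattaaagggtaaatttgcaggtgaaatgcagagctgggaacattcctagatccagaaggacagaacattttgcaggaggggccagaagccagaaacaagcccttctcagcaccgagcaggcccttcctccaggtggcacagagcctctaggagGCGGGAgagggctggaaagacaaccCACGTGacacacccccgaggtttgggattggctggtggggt
TDRKH: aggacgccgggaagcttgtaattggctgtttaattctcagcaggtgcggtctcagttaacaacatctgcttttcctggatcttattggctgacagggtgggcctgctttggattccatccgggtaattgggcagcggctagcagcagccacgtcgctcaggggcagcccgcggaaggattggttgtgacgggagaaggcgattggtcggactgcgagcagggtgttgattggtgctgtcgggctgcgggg
SYCP2 holds the E2F letters 2 times and STAG3 and PIWIL1 hold them once, and so does PAGE4, which has the E-box letters as well. TDRKH holds neither. Of the 7 members with a RefSeq window, 4 genes (DAZL, SYCP2, STAG3 and PIWIL1) had the E2F letters in at least 1 window and 2 (DAZL and STAG3) the E-box, those of DAZL and the E-box of STAG3 at a start further downstream. Of 35093 windows of the same length over 27305 genes, 23.5% held the E2F letters, 6.34% the E-box and 1.87% both, against 5 and 2 of the members' 9 windows for the E2F letters and the E-box. Counted by gene, over any of its windows, 27% of genes held the E2F letters and 7.73% the E-box. The CpG count of the members' windows ran between 0 for DDX4 and 33 for SYCP2, and 7 of 9 windows lay above the genome median of 11. A match is a description of the letters, not a bound site. The shown promoters with the letters include genes that stayed at or near the floor and a gene that rose. TEX14 itself is not printed.

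Values are log2 array intensities. Over the 12 arrays the array medians lay between 5.15 and 5.38, and the correlation of replicate arrays was 0.998 to 0.999. Gene levels form a dim peak, the floor, and a broad bright range; the lower tertile of gene means was 2.79 and the median 7.06. The 8 listed markers of MDA-MB-231 cells averaged between 11.54 and 14.90 with DMSO. Of 6 markers listed as low in this line, ERBB2 and GATA3 went against that with 8.28 and 9.23 in DMSO cells. Of 13 measured markers of testis somatic cells, 11 lay below the lower tertile in every group, and SOX9 was bright at 10.84 to 11.91. The germ cell markers DAZL, DDX4 and TDRD1 were also at the floor in every group. Other listed germ line genes, which are also expressed outside the germ line, were bright in every group, with group means of 10.88 to 11.15 for TFAP2C, 8.55 to 8.81 for DND1, 9.24 to 11.13 for ID4 and 11.82 to 12.55 for MYBL1.

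TEX14 was at the floor with DMSO and with pargyline and in the bright range with SAHA and with both drugs. The combination arrays read 8.91, 8.96 and 8.57, the SAHA arrays 7.21, 7.56 and 6.56, the pargyline arrays 2.20, 2.23 and 2.14, and the DMSO arrays 2.25, 2.28 and 2.23. Every combination array lay above every SAHA array, every SAHA array lay above all pargyline and DMSO arrays, and the pargyline and DMSO values overlapped. The means were 8.81 ± 0.21 with both drugs, 7.11 ± 0.51 with SAHA, 2.19 ± 0.05 with pargyline and 2.25 ± 0.03 with DMSO (SD, n = 3 each). Because these values chose TEX14, its differences are given as a description with no test.

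The TEX14 difference against DMSO was 6.56 with both drugs, 4.85 with SAHA and -0.06 with pargyline. The DMSO values lay at the floor, so the first 2 differences may understate the change in RNA. Both drugs against SAHA gave 1.71, a 3.26-fold difference between means in the bright range. Among the 3 SAHA arrays TEX14 varied by about 1 log2 unit, with replicate 3 the lowest, and replicate 3 was also the lowest of the combination arrays. On the linear scale the mean intensity was 453 with both drugs, 144 with SAHA, 4.56 with pargyline and 4.77 with DMSO. If the single-drug differences simply added, the combination would average 7.04 in log2 units or 143 in linear units, and the observed linear mean was 3.16 times that. The log2 excess, called the interaction below, was 1.77. With pargyline alone the probe set read the floor, where a small effect of pargyline cannot be seen, so this excess is close to the difference between both drugs and SAHA. In bulk RNA, more cells with TEX14 RNA and more TEX14 RNA per cell cannot be told apart.

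**Figure D1:**
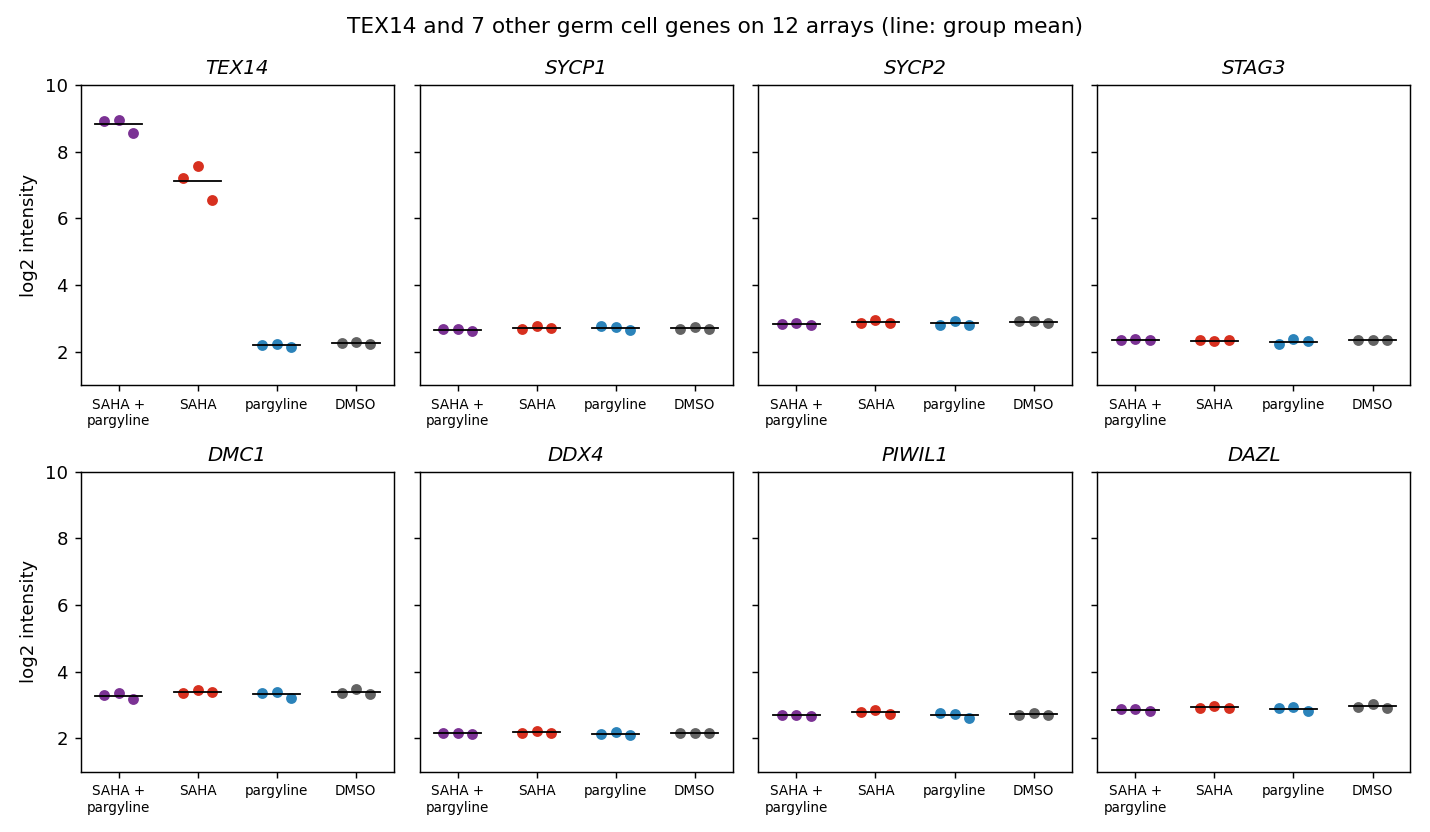
Log2 intensity of TEX14 and the 7 other germ cell genes on each of the 12 arrays, with 1 point per array, 3 arrays per group and a line at the group mean. TEX14 averaged 8.81 with both drugs, 7.11 with SAHA, 2.19 with pargyline and 2.25 with DMSO, while all values of the other genes lay between 2.11 and 3.48.

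Genes with group means like those of TEX14 were counted as a description, since those means also chose TEX14. A DMSO mean below the lower tertile was found with a combination mean above the median for 18 genes (0.15%) and with a SAHA mean above the median for 12 genes (0.1%). Dim means with pargyline and DMSO together with bright means with both drugs and SAHA were found for 9 genes, or 0.0752%. In 3 of these, or 0.0251%, all combination arrays also lay above all SAHA arrays, and they were TEX14, the neuronal microtubule protein gene MAP2 and HLA-DMB, which helps load peptide on MHC class II. MAP2 averaged 7.84 with both drugs, 7.26 with SAHA, 2.61 with pargyline and 2.08 with DMSO. HLA-DMB averaged 8.18 with both drugs, 7.86 with SAHA, 2.62 with pargyline and 2.61 with DMSO, so its step between both drugs and SAHA was the smallest of the 3.

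The genes most like TEX14 over the 12 arrays, out of 6421 genes with a bright enough group, were HTRA2, a mitochondrial protease, CNNM2, a magnesium transport protein, and FOS, an immediate early transcription factor. Their Pearson correlations with TEX14 were 0.998, 0.998 and 0.997, followed by SLC39A6, TTLL5, ATP6V1C1, CXADR and SLC25A44 down to 0.991. The 12 arrays fall into 4 groups and share these, so the correlations mainly describe the relative spacing of the group means. FOS was the nearest in size, with 8.45 with both drugs, 6.98 with SAHA, 2.64 with pargyline and 2.56 with DMSO. HTRA2 was bright throughout, with 11.33 with both drugs, 11.05 with SAHA, 10.02 with pargyline and 10.08 with DMSO. None of the 8 belongs to the germ line lists used here.

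The 7 other germ cell genes stayed at or near the floor in all 4 groups. All their values over 9 probe sets and 12 arrays lay between 2.11 and 3.48, which is between the 21.8th and 45.3rd percentile of the array, and each probe set spanned only 0.096 to 0.292 log2 units. TEX14 by comparison stood between the 65.9th and 69.1st percentile with both drugs and between the 54.6th and 59.8th with SAHA. Of the 7 genes, 4 had group means below the lower tertile throughout, while DAZL, SYCP2 and DMC1 sat slightly above it.

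**Figure D2:**
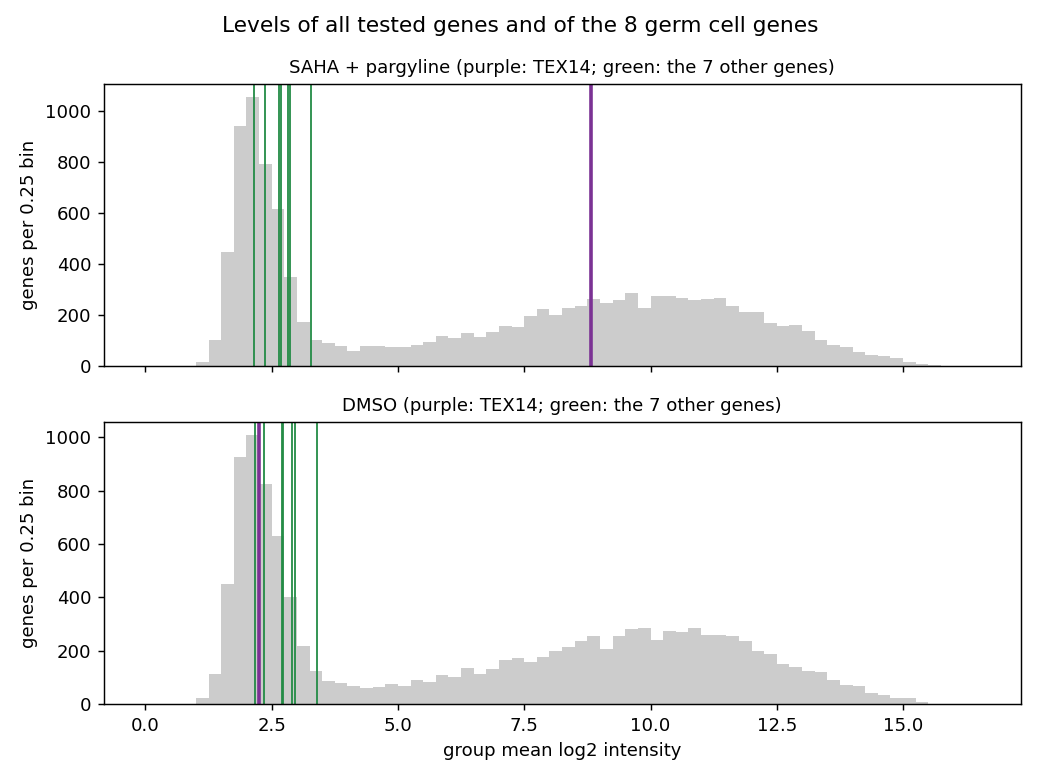
Histograms of the group mean log2 intensity of all 11963 tested genes, in bins of 0.25, with both drugs in the upper panel and DMSO in the lower panel. The purple line marks TEX14, at 8.81 with both drugs and 2.25 with DMSO, and green lines mark the 7 other germ cell genes, which stand in the dim peak in both panels.

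For the synaptonemal complex, SYCP1 averaged 2.65 ± 0.03 with both drugs, 2.72 ± 0.03 with SAHA, 2.71 ± 0.06 with pargyline and 2.71 ± 0.03 with DMSO. Its second probe set was at 2.36 to 2.44 in the group means. SYCP2 averaged 2.83 ± 0.03 with both drugs, 2.89 ± 0.04 with SAHA, 2.85 ± 0.07 with pargyline and 2.90 ± 0.03 with DMSO. Both genes were thus flat to within 0.1 log2 units. The cohesin gene STAG3 read 2.36 ± 0.02 with both drugs, 2.33 ± 0.01 with SAHA, 2.31 ± 0.08 with pargyline and 2.35 ± 0.01 with DMSO. The recombinase gene DMC1, the brightest of the 7, read 3.29 ± 0.09 with both drugs, 3.41 ± 0.06 with SAHA, 3.33 ± 0.09 with pargyline and 3.40 ± 0.07 with DMSO, and its second probe set was lower, at 2.56 to 2.64. These 4 genes cover axis, synapsis and strand exchange, and none had a group mean above 3.41.

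In the piRNA pathway, DDX4 averaged 2.16 ± 0.02 with both drugs, 2.18 ± 0.03 with SAHA, 2.15 ± 0.05 with pargyline and 2.17 ± 0.01 with DMSO. PIWIL1 averaged 2.69 ± 0.02 with both drugs, 2.79 ± 0.06 with SAHA, 2.71 ± 0.08 with pargyline and 2.72 ± 0.03 with DMSO. DAZL read 2.88, 2.87 and 2.83 on the combination arrays, 2.91, 2.98 and 2.91 on the SAHA arrays, 2.90, 2.95 and 2.83 on the pargyline arrays, and 2.95, 3.02 and 2.92 on the DMSO arrays. The combination arrays of DAZL lay below all SAHA arrays and all DMSO arrays, by at most a few hundredths of a log2 unit at the nearest pair.

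None of the 7 genes passed limma's moderated test (adjusted p under 0.05 over all 11963 genes) in any comparison. With both drugs against DMSO 0 of 7 passed, where 48.3% of all genes did, and 1 of 7 had an unadjusted p under 0.05. That gene was DAZL, with -0.10 ± 0.04 (SE) and a limma adjusted p of 0.0574. With SAHA against DMSO 0 of 7 passed, where 46.2% of all genes did, and with pargyline against DMSO 0 of 7, where 15.9% did. For both drugs against SAHA 0 of 7 passed against 16.6% of all genes, for both drugs against pargyline 0 of 7 against 47.5%, and for the interaction 0 of 7 against 3.72%. In these 5 comparisons 0 of 7 genes had an unadjusted p under 0.05. Over all genes that share was 51.9% with both drugs, 49.5% with SAHA and 27.3% with pargyline against DMSO, 28.3% for both drugs against SAHA, 50.9% for both drugs against pargyline and 17.2% for the interaction. The differences lay between -0.11 and 0.01 with both drugs against DMSO, between -0.03 and 0.06 with SAHA, and between -0.07 and 0.00 with pargyline. With each array centred on its median, the median of all genes stood at -0.17 with both drugs, against -0.01 uncentred. All 7 then passed as lower with both drugs against DMSO, at -0.27 to -0.14. With the replicate number as a block, DAZL (-0.10, limma adjusted p = 0.00808) and DMC1 (-0.11, limma adjusted p = 0.0378) passed as lower with both drugs against DMSO, and the other 5 did not. Over all comparisons of the uncentred values the 95% confidence limits reached no further than -0.26 and 0.18, so a change as large as that of TEX14 is outside them, although a probe set at the floor can understate a change in RNA.

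Groups did not overlap for 3 of 7 genes (DAZL, SYCP1 and SYCP2) with both drugs against DMSO, where 66% of all genes did not, and for 3 of 7 (DAZL, SYCP1 and PIWIL1) with both drugs against SAHA, against 37.6% of all genes. In the other pairs all 7 overlapped, where the share of all genes that did not was 53.2% between both drugs and pargyline, 52.9% between SAHA and DMSO, and 30.8% between pargyline and DMSO. Single arrays stood low or high for several probe sets. Combination replicate 3 was the lowest of the 12 arrays for 6 of the 9 probe sets, and SAHA replicate 2 was the highest for 6 of 9. The median of the dim genes of these arrays was 2.09 for combination replicate 3 and 2.14 for SAHA replicate 2, within a range of 2.08 to 2.14 over the 12 arrays. Pargyline replicate 3 had the lowest median of the dim genes and was the lowest array for 2 of 9 probe sets, and the median of all probe sets was highest on combination replicate 3, at 5.38. The part of these array levels in the members' values was not tested.

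Outside the 8 genes, 89 other germ line genes from 6 lists were measured, and most of them read at or near the floor, as the 7 other members did. Of the 89, 58 lay below the lower tertile in every group. The shares of all genes given below were not matched to these genes by brightness, and the genes that were not dim were not counted apart. With both drugs against DMSO 9 rose, 5 fell and 75 did not pass, so that 15.7% passed. With SAHA 13 rose, 5 fell and 71 did not pass (20.2%), and with pargyline 4 rose, 4 fell and 81 did not pass (8.99%). For both drugs against SAHA 4 rose and 6 fell (11.2%), for both drugs against pargyline 14 rose and 5 fell (21.3%, where 47.5% of all genes passed), and for the interaction 2 rose and 2 fell (4.49%). Of all genes 24.3% rose and 24% fell with both drugs, 23% and 23.1% with SAHA, and 8.48% and 7.45% with pargyline. For both drugs against SAHA the shares were 7.88% and 8.71%, and for the interaction 1.28% and 2.44%. Median differences of each list lay within 0.1 of 0 in the comparisons with DMSO, like those of all genes, other than the piRNA list with SAHA, at 0.30 over 6 genes.

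**Figure D3:**
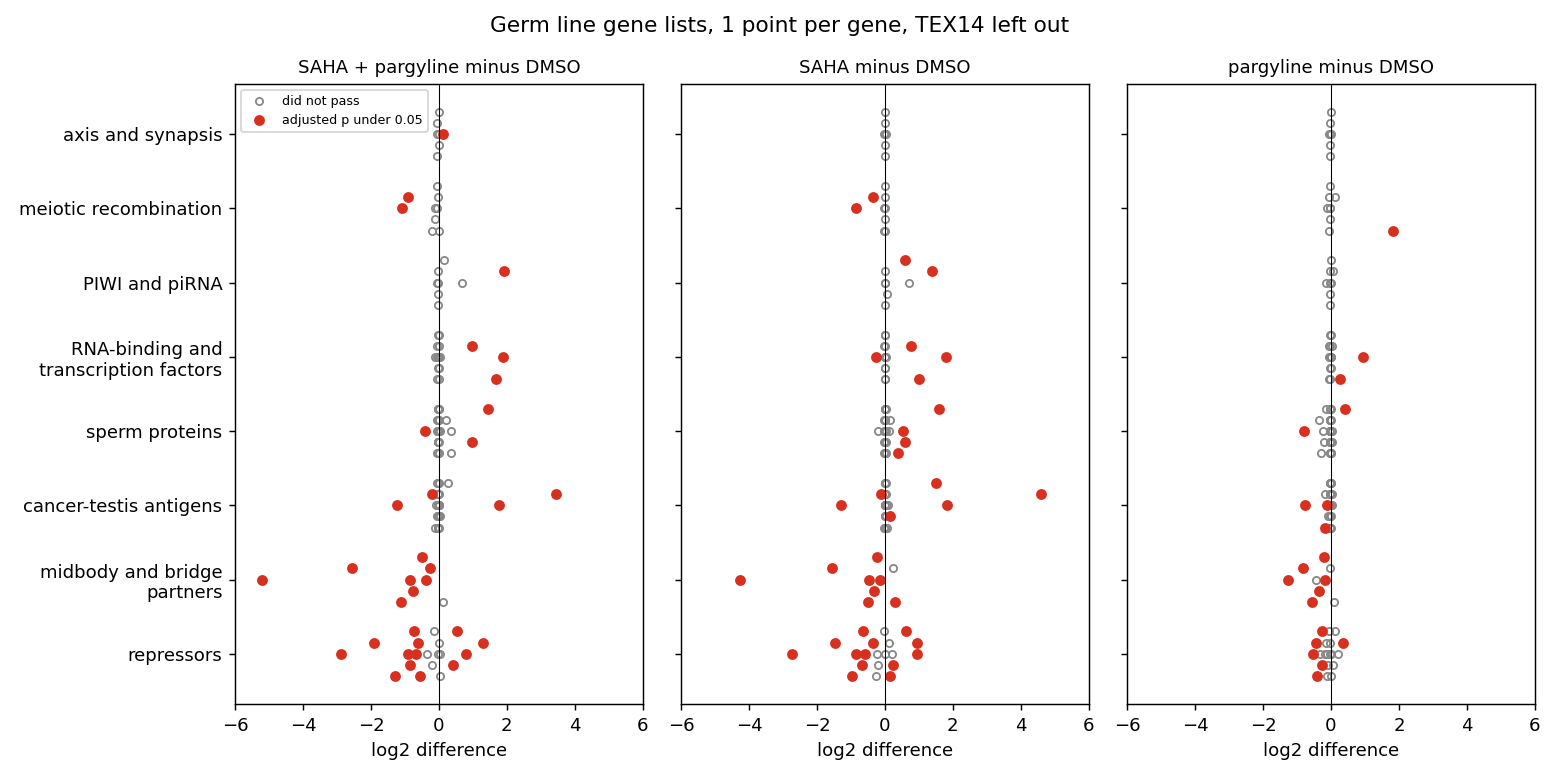
Log2 difference against DMSO of each gene of the germ line, bridge partner and repressor lists, for both drugs, SAHA and pargyline in 3 panels, with filled points for adjusted p under 0.05 and TEX14 left out. The germ line lists cluster at 0 with few genes beyond 1, whereas most bridge partners lie left of 0 with both drugs (8 of 9 fell).

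Among axis and synapsis genes 1 of 4 rose with both drugs, REC8, a meiotic cohesin gene at the floor, with 2.14 ± 0.07 in combination cells and 2.02 ± 0.01 in DMSO cells (0.12 ± 0.04 SE, limma adjusted p = 0.0147). Centring the arrays on their medians turned that difference to -0.03, and the adjusted p was 0.0588 without combination replicate 2 and 0.0585 without combination replicate 3. Among 8 recombination genes 2 fell with both drugs. They were MLH3, a mismatch repair gene needed for crossovers, by -1.09 ± 0.26, and PSMC3IP, a partner of DMC1, by -0.90 ± 0.13 (SE, limma adjusted p = 0.00504 and 0.000189). The other probe sets of MLH3 were lower, with DMSO means of 3.00 and 3.55, and differed by only -0.02 and -0.06. HSF2BP, which acts in meiotic recombination, was the single recombination gene that rose with pargyline. It read 2.97, 3.30 and 3.11 with both drugs, 3.32, 3.35 and 3.34 with SAHA, 5.45, 5.60 and 4.47 with pargyline, and 3.32, 3.38 and 3.32 with DMSO. The pargyline arrays thus stood alone, at 1.83 ± 0.24 above DMSO (SE, limma adjusted p = 0.00122), and the interaction was -2.04 ± 0.34 (adjusted p = 0.0152), opposite in sign to that of TEX14.

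In the piRNA list 1 of 6 genes rose with both drugs and 2 with SAHA. TDRKH, a Tudor protein that binds PIWI proteins at mitochondria, read 4.61, 4.30 and 4.42 with both drugs, 3.82, 4.03 and 3.92 with SAHA, 2.37, 2.60 and 2.50 with pargyline, and 2.53, 2.51 and 2.54 with DMSO. Its groups follow the order seen for TEX14, far lower on the scale. The difference was 1.92 ± 0.08 with both drugs and 1.40 ± 0.08 with SAHA (SE, limma adjusted p = 8.67e-08 and 7.52e-07), and the second probe set gave 0.93 and 0.70. Both drugs against SAHA gave 0.52 ± 0.08 (adjusted p = 0.00341), and 0.38 with adjusted p = 0.155 over the mean of both probe sets. MYBL1, the transcription factor of pachytene piRNA genes in mice, was bright, at 12.55 ± 0.11 with SAHA and 11.97 ± 0.07 with DMSO (0.58 ± 0.07 SE, adjusted p = 5.74e-05).

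Of 15 germ cell RNA-binding and transcription factors, 3 rose with both drugs, and the same 3 genes (ID4, CREM and TAF4B) rose with SAHA. CREM, an activator of spermatid genes in mice that other tissues also express, averaged 10.22 ± 0.09 with both drugs, 9.29 ± 0.06 with SAHA, 8.56 ± 0.14 with pargyline and 8.53 ± 0.10 with DMSO. Its interaction was 0.89 ± 0.11 (SE, limma adjusted p = 0.00486), and 3 of its 4 probe sets followed this order while the other stayed at the floor. ID4, known as a marker of mouse spermatogonial stem cells, was 1.89 ± 0.17 above DMSO with both drugs, 1.81 ± 0.17 with SAHA and 0.94 ± 0.17 with pargyline. Its other probe sets had DMSO means of 4.07 and 4.43 and gave 3.45 and 1.38 with both drugs. TAF4B, a gonadal subunit of the TFIID complex, was 0.99 ± 0.18 above DMSO with both drugs and 1.01 ± 0.18 with SAHA. DND1, an RNA-binding protein of primordial germ cells, fell with SAHA by 0.25 ± 0.09 (limma adjusted p = 0.0399), a call lost with quantile normalization (0.0876) and when combination replicate 1, SAHA replicate 1 or 3, pargyline replicate 3, or DMSO replicate 2 or 3 was left out, at adjusted p of 0.0547 to 0.150. TFAP2C, a transcription factor of early germ cells, rose with pargyline by 0.27 ± 0.04 (limma adjusted p = 0.0020, and 0.0543 over the mean of its probe sets). By their tested probe sets ID4, CREM and TAF4B were above 5.9 in DMSO cells, so none went with TEX14 in starting at the floor.

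Of 30 sperm protein genes 22 were dim throughout, 2 rose and 1 fell with both drugs, and 4 rose with SAHA. HSPA2, a testis heat shock protein, was 1.45 ± 0.14 above DMSO with both drugs and 1.60 ± 0.14 with SAHA. CLGN, a chaperone of spermatids, was 0.99 ± 0.05 above DMSO with both drugs, 0.59 ± 0.05 with SAHA and 0.42 ± 0.05 with pargyline, so the single-drug differences nearly added (interaction -0.02 ± 0.07, SE, limma adjusted p = 0.943). SPA17, a sperm surface protein, averaged 10.26 ± 0.02 with both drugs, 10.81 ± 0.02 with SAHA, 9.48 ± 0.18 with pargyline and 10.27 ± 0.08 with DMSO. It rose by 0.54 ± 0.08 with SAHA and fell by 0.79 ± 0.08 with pargyline (SE, limma adjusted p = 0.000214 and 0.000263). SPAG16, a protein of the sperm axoneme, rose with SAHA by 0.38 ± 0.12 (limma adjusted p = 0.0245), a call lost with centred arrays (0.0547) and without SAHA replicate 2 (0.0507), SAHA replicate 3 (0.0878) or DMSO replicate 2 (0.0877). PHF7 was the gene that fell with both drugs, by 0.41 ± 0.14 (limma adjusted p = 0.0383), and 8 of the 12 fits that each left out an array did not call it, at adjusted p of 0.0501 to 0.140.

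Of 26 cancer-testis antigens 2 rose and 2 fell with both drugs, and 4 rose and 2 fell with SAHA. MAGEB2 read 8.50, 8.76 and 9.13 with both drugs, 9.55, 10.01 and 10.25 with SAHA, 4.30, 4.88 and 4.51 with pargyline, and 5.43, 5.46 and 5.13 with DMSO. Its combination arrays lay below its SAHA arrays, the reverse of TEX14, and the difference of both drugs from SAHA was -1.14 ± 0.22 (SE, limma adjusted p = 0.00803, and 0.0502 with only those groups in the fit). PAGE4 read 4.17, 3.38 and 3.37 with both drugs, 4.34, 4.21 and 2.54 with SAHA, 1.84, 1.84 and 1.86 with pargyline, and 1.90, 1.85 and 1.85 with DMSO. It rose by 1.77 ± 0.42 with both drugs and by 1.83 ± 0.42 with SAHA (limma adjusted p = 0.00511 and 0.00456), and SAHA replicate 3, where TEX14 was also lowest, stood well below the other SAHA arrays. MAGEA1 averaged 5.83 ± 0.09 with both drugs, 7.06 ± 0.70 with SAHA, 5.37 ± 0.10 with pargyline and 5.56 ± 0.05 with DMSO. It rose with SAHA by 1.50 ± 0.27 (SE, limma adjusted p = 0.00108), and both drugs against SAHA gave -1.23 ± 0.27 (adjusted p = 0.0140, 0.102 with only those groups in the fit and 0.0505 without combination replicate 2). MAGEA6 and MAGEA12 were bright at 12.90 to 13.53. MAGEA6 fell with both drugs by 0.20 ± 0.03, and MAGEA12 fell with pargyline by 0.18 ± 0.04 (limma adjusted p = 0.0139, and 0.0534 without pargyline replicate 3 or 0.0586 without DMSO replicate 1). MAGEC1 fell by 1.24 with both drugs and by 1.31 with SAHA, whereas PRAME stayed at 2.10 to 2.14 in every group. MAGE genes are near copies of each other, and their probe sets may read RNA of relatives.

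**Figure D4:**
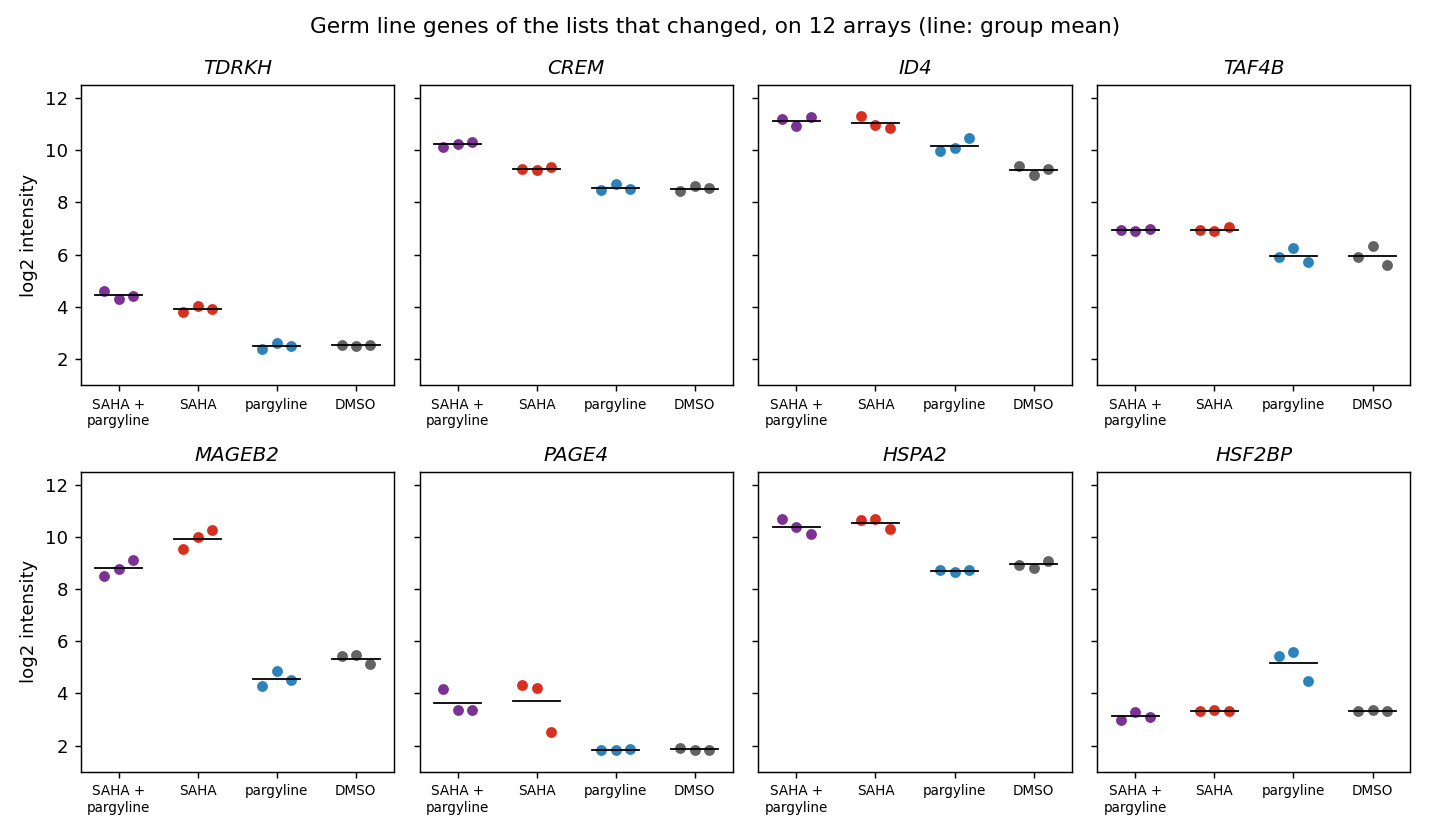
Log2 intensity of 8 genes of the germ line lists on each of the 12 arrays, with 1 point per array and a line at the group mean. TDRKH and CREM are highest with both drugs, MAGEB2 is highest with SAHA alone, and HSF2BP is raised on the 3 pargyline arrays alone.

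The proteins that TEX14 works with at germ cell bridges are cell division proteins of the midbody, and their genes mostly fell. Of 9 measured, 0 rose and 8 fell with both drugs, 1 rose and 7 fell with SAHA, and 0 rose and 6 fell with pargyline. Of all genes 24%, 23.1% and 7.45% fell in these comparisons. CEP55, the direct partner of TEX14, read 12.18, 11.86 and 12.25 with both drugs, 12.99, 13.08 and 13.14 with SAHA, 12.28, 12.35 and 12.25 with pargyline, and 12.79, 12.79 and 12.94 with DMSO. It fell by 0.75 ± 0.09 with both drugs and by 0.55 ± 0.09 with pargyline (SE, limma adjusted p = 7.43e-05 and 0.00406). With SAHA it was 0.23 ± 0.09 above DMSO (adjusted p = 0.0732, and 0.030 with only those groups in the fit). KIF23, the centralspindlin motor, fell by 2.56 ± 0.18 with both drugs and by 1.56 ± 0.18 with SAHA. RACGAP1, its centralspindlin partner, fell by 1.10 ± 0.10 with both drugs and by 0.49 ± 0.10 with SAHA. ECT2, the exchange factor that centralspindlin recruits, fell by 0.84 ± 0.14 with both drugs and by 0.48 ± 0.14 with SAHA, where the adjusted p of 0.0183 became 0.0708 without SAHA replicate 1 and 0.0704 without DMSO replicate 3. PLK1, a mitotic kinase that TEX14 can bind, fell to 2.47 ± 0.56 with both drugs and 3.41 ± 0.19 with SAHA, against 7.67 ± 0.02 with DMSO. TSG101, of the ESCRT machinery that cuts the bridge, was the gene that rose with SAHA, by 0.29 ± 0.07 (SE, limma adjusted p = 0.00578, and 0.0573 with centred arrays).

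Of 20 measured repressors of germ line genes, 4 rose and 9 fell with both drugs, 5 rose and 8 fell with SAHA, and 1 rose and 5 fell with pargyline. The shares over all genes were 24.3% and 24% with both drugs, 23% and 23.1% with SAHA, and 8.48% and 7.45% with pargyline. DNMT3A, a de novo DNA methyltransferase, fell by 2.89 ± 0.15 with both drugs and by 2.74 ± 0.15 with SAHA. DNMT1, the maintenance methyltransferase, fell by 1.30 ± 0.07 with both drugs, by 0.98 ± 0.07 with SAHA and by 0.54 ± 0.07 with pargyline. TFDP1, the partner of E2F factors, fell by 1.90 ± 0.07 with both drugs and by 1.46 ± 0.07 with SAHA. E2F6, whose motif is marked above, was 0.43 ± 0.09 higher with both drugs (SE, limma adjusted p = 0.0025), and RYBP, of the same kind of Polycomb complex, rose by 1.31 ± 0.09. RING1, a Polycomb ubiquitin ligase, rose by 0.53 ± 0.10 with both drugs and by 0.94 ± 0.10 with SAHA. KDM1A, which encodes LSD1, fell by 0.44 ± 0.09 with pargyline (adjusted p = 0.0103) and was 0.20 ± 0.09 lower with both drugs (adjusted p = 0.0993). HDAC1, a deacetylase that SAHA inhibits, averaged 13.00 with both drugs, 13.17 with SAHA, 12.97 with pargyline and 13.02 with DMSO. HDAC2, its close relative, averaged 13.11 with both drugs, 13.38 with SAHA, 13.22 with pargyline and 13.26 with DMSO. HDAC1 rose with SAHA against DMSO by 0.16 ± 0.04 (SE, limma adjusted p = 0.0134), and HDAC2 did not pass (0.12 ± 0.07, limma adjusted p = 0.214). The HDAC1 call was lost with centred arrays (adjusted p = 0.363) and without SAHA replicate 1 (0.0524) or DMSO replicate 2 (0.0542). For 0 of these 20 genes did the interaction pass, where 3.72% of all genes passed, so nothing is read from this count.

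Of the 6 measured genes beside TEX14 on chromosome 17, 3 rose and 1 fell both with both drugs and with SAHA, and 0 rose and 1 fell with pargyline. As 48.3%, 46.2% and 15.9% of all genes passed in these comparisons, nothing is read from the counts. SEPTIN4, the next gene in RefSeq order and a septin of the mouse sperm tail annulus, averaged 5.33 ± 0.07 with both drugs, 6.09 ± 0.64 with SAHA, 2.16 ± 0.05 with pargyline and 2.15 ± 0.01 with DMSO. It rose by 3.18 ± 0.24 with both drugs and by 3.94 ± 0.24 with SAHA (SE, limma adjusted p = 2.73e-06 and 8.14e-07). Both drugs against SAHA gave -0.76 ± 0.24 (limma adjusted p = 0.0623), the opposite sign to TEX14. The adjusted p was 0.0489 with centred arrays, 0.0332 without genes below the lower tertile and 0.0150 with array weights. Without SAHA replicate 3 the difference was -1.11 (adjusted p = 0.000962) and the interaction -1.12 (adjusted p = 0.00608). PPM1E, a protein phosphatase gene 3 places to the other side, averaged 9.11 ± 0.28 with both drugs, 8.44 ± 0.39 with SAHA, 6.03 ± 0.03 with pargyline and 5.89 ± 0.14 with DMSO. It rose by 3.22 ± 0.19 with both drugs and by 2.55 ± 0.19 with SAHA. For PPM1E both drugs against SAHA gave 0.67 ± 0.19 (SE, limma adjusted p = 0.0406), the same sign as TEX14. That call was lost with only those groups in the fit (0.162) and with centred arrays (0.0553). It was also lost without combination replicate 1 or 2, SAHA replicate 2 or 3, or any pargyline or DMSO replicate. The limma adjusted p then lay between 0.0532 and 0.133. The PPM1E call was the 1 call among the 6 neighbours for both drugs against SAHA, where 16.6% of all genes passed. TRIM37, a ubiquitin ligase gene, rose by 0.84 ± 0.05 and 1.00 ± 0.05 in the same comparisons, and MTMR4, a lipid phosphatase gene, fell by 0.62 ± 0.18 and 0.83 ± 0.18. The MTMR4 call with both drugs had adjusted p = 0.0149, and 0.0513 without DMSO replicate 2. RNF43 stayed at the floor, at 2.07 to 2.12. Of RAD51C, a recombination gene, neither difference passed (0.02 ± 0.15 with both drugs and 0.30 ± 0.15 with SAHA, adjusted p = 0.927 and 0.151, and 0.0231 with SAHA over the mean of its probe sets). RAD51C fell by 0.56 ± 0.15 with pargyline (limma adjusted p = 0.033), a call lost in 5 of the 12 fits that each left out an array, with adjusted p between 0.0529 and 0.119. The neighbours were looked up after the values of TEX14 were seen, and HSF5 and IGBP1C, which lie among them, were not analysed here.

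**Figure D5:**
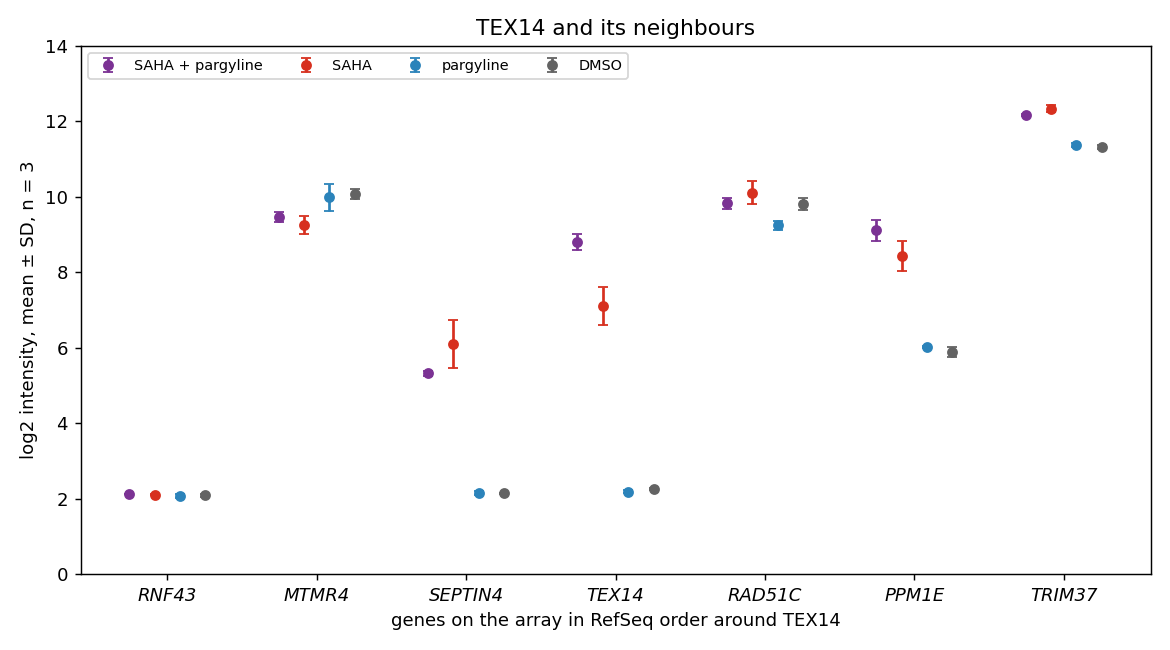
Mean log2 intensity with SD (n = 3) of TEX14 and the 6 measured genes around it in RefSeq order, for both drugs, SAHA, pargyline and DMSO. SEPTIN4 leaves the floor with SAHA like TEX14 but averages 5.33 with both drugs and 6.09 with SAHA, while RNF43 stays at the floor and TRIM37 is bright in all groups.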

How the data were processed

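Total RNA of 12 MDA-MB-231 samples was biotin-labelled and hybridised to Affymetrix human arrays. The deposited values are log2 intensities made by the authors with RMA, per the submitters' processing notes; its version is not given in the sources used here, and no detection calls were used. Values were used as deposited. The array has 22277 probe sets; those listed for a single gene (19064) were used, and 1043 with several genes, 2108 with none and 62 controls were left out. Symbols were updated by gene identifier with RefSeq (GRCh38.p14). Each of 11963 genes was tested by its brightest probe set. All 12 arrays entered a model with 4 group means (lmFit and eBayes, limma 3.58.1, R 4.3.3), which leaves 8 residual degrees of freedom. The threshold was an adjusted p (Benjamini-Hochberg, every gene included) under 0.05; errors of differences are model SEs, and the number of arrays limits their precision (median SE 0.077). TEX14 was not tested, since its values chose it. The members and gene lists were chosen with earlier results of these data known. List genes were named by rule: per list, of those that passed, the largest changes (up to 4 for SAHA and for COMBO against DMSO, up to 2 in other comparisons), with CEP55, KDM1A, HDAC1, HDAC2 and E2F6 in any case, and the 8 genes most like TEX14 by Pearson's r; MAP2, HLA-DMB, PRAME, TDRD1, TSG101 and the neighbours of TEX14 were named after their values were seen. Genes below the lower tertile of gene means (2.79) are called dim. The fit was tested on simulated data. Alternatives covered normalization, filters, probe sets, a replicate block, weights, prior, thresholds and each array left out.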

Additional observations from a re-analysis of the deposited data

Results flagged for a closer look

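For 4 genes of the germ line lists the effect of pargyline differed with and without SAHA, by limma's test of the interaction, 4.49% of the 89 measured, where 3.72% of all genes passed. HSF2BP had an interaction of -2.04 (adjusted p = 0.0152), with 3.13 with both drugs, 3.34 with SAHA, 5.17 with pargyline and 3.34 with DMSO. TDRKH had 0.56 (adjusted p = 0.0367), and CREM had 0.89 (adjusted p = 0.00486), both with a higher log2 intensity under both drugs than the single-drug differences add up to. TFAP2C, a transcription factor of early germ cells, had -0.27 (adjusted p = 0.0327), with 10.88 with both drugs, 10.88 with SAHA, 11.15 with pargyline and 10.88 with DMSO. The TDRKH call was lost in 8 of the 12 fits that each left out an array and with the replicate block (adjusted p = 0.0594), and the TFAP2C call in 9 of the 12. The groups of 3 arrays are too small for a test of single arrays that stand apart.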

How the results depend on the processing

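TEX14 kept its direction against DMSO with both drugs and with SAHA, and its excess over SAHA, under the alternatives run. Leaving out each array in turn gave 6.49 to 6.68, 4.63 to 5.13 and 1.43 to 1.93, and 1.49 to 1.99 for the interaction. These same values chose TEX14, so the ranges are a description and test nothing. For the 7 other members, both drugs against DMSO gave 2 calls with quantile normalization, 2 with a replicate block (DAZL and DMC1, both lower), 1 with array weights, and 7 with centred arrays, all lower. Centring put the median of all genes at -0.17 with both drugs, -0.15 with pargyline and -0.10 with SAHA. Uncentred, these medians were -0.01, -0.02 and 0.00. The 7 calls with both drugs and centred arrays lay between -0.27 for DMC1 and -0.14 for STAG3, beside the centred median of all genes, -0.17. STAG3, the neighbour RNF43 (-0.12) and REC8 (-0.033) turned from higher to lower, and REC8 then did not pass (limma adjusted p = 0.490). The part of the shift in these calls was not tested. Pargyline against DMSO gave 5 calls with centring and 1 with array weights, and SAHA against DMSO 1 with quantile normalization. Leaving out an array gave 0 to 1 calls for both drugs against DMSO (DAZL, without pargyline replicate 2, pargyline replicate 3 or DMSO replicate 3) and 0 to 1 against pargyline (STAG3 without pargyline replicate 2, SYCP1 without pargyline replicate 3). Without genes below the median none of the 7 is left. Of the 89 other germ line genes, centring called 78 with both drugs and 71 with pargyline against DMSO. The centred medians of all genes in these comparisons were -0.17 and -0.15. Shares of all genes under this and the settings that follow are not given here, so nothing is read from these counts. Without genes below the median 8 were called with both drugs against DMSO, 11 against pargyline and 2 for the interaction, which also had 2 with the mean of all probe sets. A change of at least 2-fold left 8 (both drugs against DMSO), 8 (against pargyline), 2 (against SAHA), 1 (pargyline against DMSO), 8 (SAHA against DMSO) and 1 (interaction). An adjusted p under 0.01 left 6 for both drugs against SAHA, 1 for the interaction and 5 for pargyline against DMSO, and a fit of only the groups compared left 5 for both drugs against SAHA. Leaving out arrays gave 2 to 4 for the interaction (2 without combination replicate 1, pargyline replicate 3 or any DMSO replicate) and 5 to 8 for pargyline against DMSO (5 without pargyline replicate 3 or DMSO replicate 1). The TDRKH interaction had adjusted p = 0.0868 with quantile normalization, 0.389 with the mean of probe sets and 0.0594 with the replicate block. The TFAP2C interaction had adjusted p = 0.200 with centring, 0.50 with the mean of probe sets and 0.172 with a trended prior. Each array left out in turn took the TDRKH call away in 8 fits and the TFAP2C call in 9. The cause was not tested. Replicates of equal number deviated together with r of 0.081 to 0.534 (over 0.1 in 13 of 18 pairs). Different numbers gave r of -0.523 to 0.252, under 0 in 30 of 36 pairs, and an array correlated best with its own number in 34 of 36 cases. In 2 of 6 pairs of groups (COMBO with SAHA, pargyline with DMSO) every same-numbered r was over 0.1. Deviations within a group sum to 0, so the signs of equal and different numbers are not independent. This is a hint of pairing from the data, while the labels give the numbers no further meaning. In those 2 comparisons the block changed no call of a named gene and no count by over 1.5 times. Of the named genes it also called RAD51C with SAHA against DMSO (adjusted p = 0.0186) and lost MTMR4 with both drugs against pargyline (0.0514).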
